A study of Homo sapiens with 4 samples.

Results

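RNA-seq of SK-N-BE(2) neuroblastoma cells was examined for the replication-dependent histone cluster genes, the protein-coding genes whose GENCODE 44 symbols are H1-1 to H1-6 or begin with H2AC, H2BC, H3C or H4C and a digit. The rule gave 70 genes, of which 66 were among the 64252 genes of the count table. The identifiers of H2AC18, H2AC19, H3C2 and H3C3 did not match a row and these genes were not analysed here. SK-N-BE(2) is an established human neuroblastoma cell line. It was infected with lentivirus and selected with puromycin to carry scrambled shRNA (sh-Scb, the control) or an shRNA against SAPCD2 (sh-SAPCD2), with 2 libraries for each group. Both groups thus share the vector and the selection. The sources do not say that the libraries of a group came from separate cultures, so p-values measure the spread between these libraries, which may be technical.

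Replication-dependent histones package newly made DNA. The core histones H2A, H2B, H3 and H4 form the nucleosome, and H1 binds the linker DNA between nucleosomes. Their genes have no introns in the coding part and are switched on in S phase by NPAT, which is recruited to the gene clusters. Their mRNAs are not polyadenylated in cycling cells. The transcript is instead cut after a conserved stem-loop, which the stem-loop binding protein SLBP holds through processing, translation and the rapid decay that follows the end of DNA synthesis. Some of these genes also make a minor polyadenylated transcript. The libraries were made with the Illumina TruSeq RNA kit from total RNA. Its standard protocol captures RNA by a poly(A) tail, so the counts below cannot be read as the full histone mRNA pool, and a change in the amount of histone RNA cannot be told apart from a change in the polyadenylated share.

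The stem-loop that defines these mRNAs was read from hg38 in the 150 bases that start at the stop codon. The pattern searched was a stem of 6 fully complementary base pairs that opens with GG, around a loop of 4 bases with T at its 1st and 3rd base. It was found in 67 of the 70 genes and in 8 of 19976 other protein-coding genes (0.0400%), among them H2AX, H3-4 and H3-7. Its first base lay 26 to 71 bases from the stop codon's first base, with a median of 39. The search gave 8 distinct sequences. The forms below are shown because they separate H4 from the other families at position 4 of the stem and show the G-T pair of H2AC11, and each is the DNA strand of the gene with the paired bases in capitals.
H2BC21, chr1:149886188-149886203, minus strand: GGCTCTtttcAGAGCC
H3C8, chr6:26270923-26270938, minus strand: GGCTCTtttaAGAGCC
H4C14, chr1:149833032-149833047, plus strand: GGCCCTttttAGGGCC
H2AC11, chr6:27133515-27133530, plus strand: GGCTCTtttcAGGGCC
The form printed for H2BC21 was present in 40 genes, including H2AC25, H2BC15, H3C10, H3C14 and H3C15. All 15 H4 genes opened the stem with GGCCCT, and all 52 other genes with a stem-loop opened it with GGCTCT. H2AC11, H2AC15 and H2BC12L lacked the fully complementary form. In H2AC11 and H2AC15 the same search with G-T pairs allowed (G-U in RNA) found a stem-loop with 1 such pair, and in H2BC12L it found none.

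The depth was 25347900 to 31850997 counts for each library, and 3 counts, taken as the smallest amount that can be told from 0, equaled 0.0955 to 0.119 CPM. CPM are counts scaled to library size, with TMM factors applied. SAPCD2, the targeted gene, had 83.6 and 82.2 CPM in sh-Scb and 35.4 and 52.5 CPM in sh-SAPCD2, a log2 fold change of −0.91 (SE 0.193, adjusted p = 0.0206 by edgeR's quasi-likelihood test). All 10 adrenergic neuroblastoma markers were tested, with 4 lower and 1 higher in sh-SAPCD2 (12.5% and 12.4% of all tested genes were). MYCN made up most of the summed level of these markers, 5991 to 10101 CPM. The summed level of 5 leukocyte markers was 9.52 to 14.1 CPM, with CD3E and LYZ at 0 and CD14 higher in sh-SAPCD2, and that of 5 epithelial markers was 3.59 to 5.74 CPM, with CDH1 and KRT5 at 0. The summed level of 6 fibroblast markers was 353.6 to 372.9 CPM in sh-Scb and 401.5 to 431.5 CPM in sh-SAPCD2, mostly LUM and PDGFRB, and 0 of the 5 tested were called by edgeR or DESeq2 (1 was higher at an unadjusted p under 0.05). The part of these markers in the results was not tested.

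Histone cluster genes were counted at low levels. Among the 66 genes that could be joined, 10 were at 0 throughout, 18 (these included) stayed under 3 counts in every library, and 28 reached 3 counts in every library. The 10 without a count were H2BC1, H2BC3, H2AC4, H4C2, H4C3, H4C6, H4C7, H4C4, H2AC15 and H4C13, of which 6 are H4 genes. The filter on low counts left 27 genes to test. The 39 genes in the table that did not pass it had at most 31 counts over the 4 libraries, the highest being H2BC4. A gene that was high in only 1 group could still pass, so the tested genes do not stand for all 70. The mean level of the tested genes was 0.255 to 25.2 CPM with a median of 0.899 CPM, against a median of 14.2 CPM over all 18779 tested genes, and only H2AC25 was above that median.

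Per kilobase of annotated exon, averaged over the 4 libraries, H2BC12 (14.4 CPM per kb) and H2AC25 (13.6 CPM per kb) had the highest levels. H4C9 followed with 6.64, H2BC5 with 4.73, H2AC11 with 4.19 and H1-2 with 3.68 CPM per kb. Neighbors in this order were not tested against each other.

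**Figure D1:**
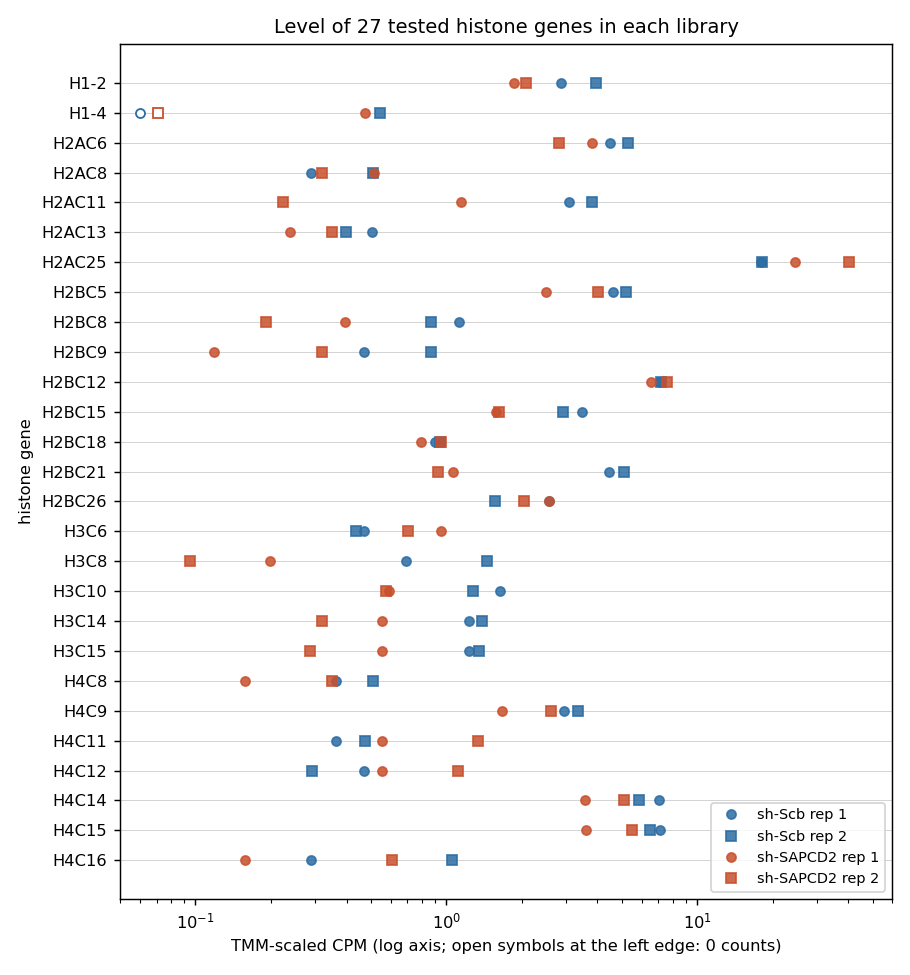
Level of each of the 27 tested histone genes in the 4 libraries, as TMM-scaled CPM on a log axis, with sh-Scb in blue and sh-SAPCD2 in orange, and circles and squares for the 2 libraries of a group. The sh-Scb symbols lie to the right of the sh-SAPCD2 symbols without overlap in 17 genes, and to the left in 4 genes, H2AC25, H3C6, H4C11 and H4C12.

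The comparison of sh-SAPCD2 with sh-Scb asks how the histone genes behave when SAPCD2 is knocked down. Of the 27 tested genes, 7 fell in the SAPCD2-knockdown cells at an adjusted p under 0.05 (25.9% of the members tested, against 12.5% of all tested genes) and 1 was higher (3.70%, against 12.4% of all tested genes). The lower genes were H2BC15, H2BC21, H2AC11, H3C8, H3C10, H3C14 and H3C15, and the higher gene was H2AC25. At an absolute log2 fold change over 1 as well, 6 genes were lower (5.15% of all tested genes were). The log2 fold change was below 0 in 21 and above 0 in 6 of the tested genes. Its median was −0.58, against 0.02 over all tested genes. Of the 27 genes, 8 met the count minimum of the filter in sh-Scb alone and 1 in sh-SAPCD2 alone. The tested set, its split and its median thus lean toward genes higher in sh-Scb. Of the 15 genes that met the minimum in both groups, 3 were lower and 1 was higher. The sh-Scb libraries lay above the sh-SAPCD2 libraries without overlap in 17 members (33.4% of all tested genes did), and below them in 4 members (33.5% of all tested genes did). At an unadjusted p under 0.05 there were 9 lower genes and 1 higher gene. In these bulk libraries, fewer cells in S phase and less histone RNA in each such cell cannot be told apart.

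The share of lower calls depended on the test. DESeq2 called 3 of the 27 genes lower (11.1%, against 12.4% of all tested genes), H2AC11, H2BC21 and H3C8. Of the 7 genes called lower by edgeR, 4 (H2AC11, H3C8, H3C14 and H3C15) met the count minimum of the filter in sh-Scb alone, the group where they were higher, and 3 (H2BC15, H2BC21 and H3C10) met it in both groups. Leaving out 1 library changed which genes were called, and only H2AC11 and H2BC21 were called lower under each of these fits. The median log2 fold change of the members was −0.92 to −0.37 over these fits. Without the first or the second sh-Scb library there were 3 lower genes (10.7%, against 5.81% of all genes) and 2 lower genes (7.41%, against 5.80%), and 0 higher.

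**Figure D2:**
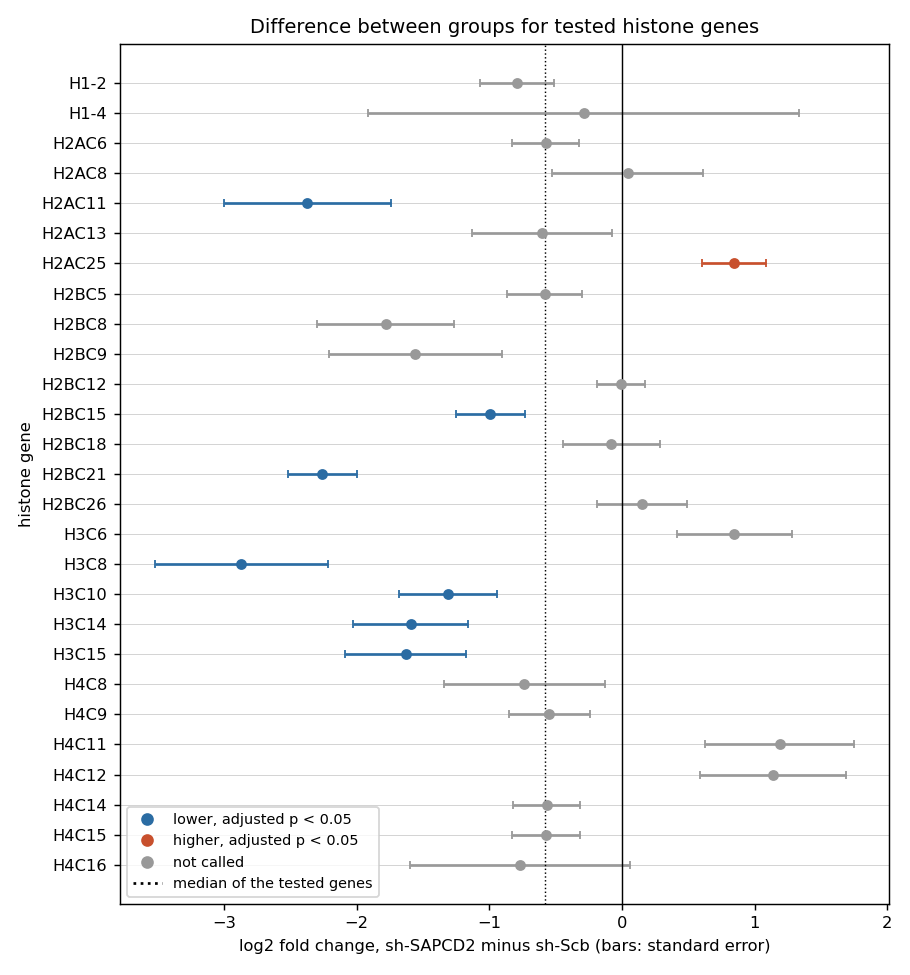
Log2 fold change of each tested histone gene, sh-SAPCD2 minus sh-Scb, with its standard error as a bar. The 7 genes called lower (blue) run from −2.87 in H3C8 to −0.99 in H2BC15, H2AC25 (orange) is at 0.85, and the dotted line marks the median of −0.58.

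Linker histones. H1-2 had 2.86 and 3.96 CPM in sh-Scb and 1.86 and 2.07 CPM in sh-SAPCD2, so the groups did not overlap. Its log2 fold change of −0.79 (SE 0.278) did not pass the test (adjusted p = 0.0858, edgeR). H1-4 was counted in 1 library of each group, with 0 and 0.545 CPM in sh-Scb and 0.474 and 0 CPM in sh-SAPCD2. Of the 2 tested linker histone genes, 0 were called by edgeR or DESeq2, and 1 was lower at an unadjusted p under 0.05. H1-5, with 2 and 5 counts in sh-Scb and 0 and 2 counts in sh-SAPCD2, and the other linker histone genes were not tested.

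H2A genes. H2A pairs with H2B to form the dimers that flank the H3-H4 core of the nucleosome. H2AC11 had 3.08 and 3.82 CPM in sh-Scb and 1.15 and 0.223 CPM in sh-SAPCD2. All of its control values were above its knockdown values, and the knockdown libraries differed between themselves more than the controls did. Its log2 fold change was −2.37 (SE 0.630, adjusted p = 0.0397, edgeR). H2AC25, which lies away from the main clusters at chr1:228434777-228457873, had 17.9 and 18.1 CPM in sh-Scb and 24.6 and 40.2 CPM in sh-SAPCD2. It was the only member called higher, with a log2 fold change of 0.85 (SE 0.240, adjusted p = 0.0483, edgeR). That call was lost when either sh-Scb library was left out, where the adjusted p reached 0.0697. H2AC6 had 4.49 and 5.31 CPM in sh-Scb and 3.79 and 2.80 CPM in sh-SAPCD2, without overlap and without a call (log2 fold change −0.57, SE 0.251, adjusted p = 0.144, edgeR). H2AC13 was at −0.60 and H2AC8 at 0.04 on the log2 fold change scale, and neither was called.

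H2B genes. H2BC21 gave the smallest p-value of the members. It had 4.45 and 5.09 CPM in sh-Scb and 1.07 and 0.923 CPM in sh-SAPCD2, from 123, 140, 27 and 29 counts. Each control library was above both knockdown libraries. The log2 fold change was −2.26 (SE 0.261, adjusted p = 0.00425, edgeR), and the gene was called under every alternative. Among the 70 genes its canonical transcript was the longest, at 2224 bases, where the others had 386 to 797 bases. H2BC15 had 3.48 and 2.91 CPM in sh-Scb and 1.58 and 1.62 CPM in sh-SAPCD2, a log2 fold change of −0.99 (SE 0.261, adjusted p = 0.0387, edgeR). H2BC12, the H2B gene with the highest level per kilobase, had 7.10 and 7.16 CPM in sh-Scb and 6.56 and 7.61 CPM in sh-SAPCD2. Its groups overlapped, and the log2 fold change was −0.01 (SE 0.183, adjusted p = 0.981, edgeR). H2BC5 had 4.60 and 5.20 CPM in sh-Scb and 2.49 and 4.01 CPM in sh-SAPCD2 (log2 fold change −0.58, adjusted p = 0.185, edgeR). H2BC8 had 1.12 and 0.872 CPM in sh-Scb and 0.395 and 0.191 CPM in sh-SAPCD2. Its log2 fold change of −1.78 lay just outside the threshold (SE 0.517, adjusted p = 0.0520, edgeR). H2BC9 at −1.56, H2BC18 at −0.08 and H2BC26 at 0.15 on the log2 fold change scale were not called.

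H3 genes. H3 and H4 form the tetramer at the center of the nucleosome. H3C8, H3C10, H3C14 and H3C15 were called lower, and all but H3C10 passed the filter through sh-Scb alone. H3C8 had 0.688 and 1.45 CPM in sh-Scb and 0.198 and 0.0955 CPM in sh-SAPCD2, from 19, 40, 5 and 3 counts. The controls were above the knockdown libraries but differed between themselves, and the last value is at the floor of 3 counts. Its log2 fold change was −2.87 (SE 0.653, adjusted p = 0.0256, edgeR). H3C10 had 1.63 and 1.27 CPM in sh-Scb and 0.593 and 0.573 CPM in sh-SAPCD2 (log2 fold change −1.31, SE 0.369, adjusted p = 0.0475, edgeR), and was called under none of the 4 fits that left out a library. H3C14 and H3C15 have identical coding sequences and gave nearly the same counts in each library. H3C14 had 34, 38, 14 and 10 counts and H3C15 34, 37, 14 and 9 counts, in the order of the 2 sh-Scb and the 2 sh-SAPCD2 libraries. How reads that match both were assigned is not given in the sources used here, so their calls (log2 fold changes of −1.59 and −1.63) may rest on shared reads. H3C6 was the exception in direction, at 0.471 and 0.436 CPM in sh-Scb and 0.948 and 0.701 CPM in sh-SAPCD2, and was not called (log2 fold change 0.85, SE 0.435, adjusted p = 0.202, edgeR).

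H4 genes. Of the 7 tested H4 genes, 0 were called by edgeR, 0 by DESeq2, and 0 had an unadjusted p under 0.05. H4C9 had 2.93 and 3.34 CPM in sh-Scb and 1.66 and 2.61 CPM in sh-SAPCD2 (log2 fold change −0.55, SE 0.304, adjusted p = 0.234, edgeR). H4C14 and H4C15 have identical canonical transcripts and were summed, with 391 and 339 counts in sh-Scb and 181 and 333 counts in sh-SAPCD2 (log2 fold changes of −0.57 each, not called). The second knockdown library was close to the second control in counts, from a deeper library. H4C11 and H4C12 have identical coding sequences, with 23 and 21 counts together in sh-Scb and 28 and 77 counts in sh-SAPCD2, and their log2 fold changes were 1.19 and 1.14 without a call. H4C8 and H4C16 were at −0.74 and −0.77 on the log2 fold change scale. The H4 genes largely share a product, and 14 of the 15 H4 genes encode 1 protein of 103 amino acids with the initiator methionine. By the same translation, 10 of 13 H3 genes encode 1 protein of 136 amino acids, whereas the 17 H2A genes encode 11, the 19 H2B genes 15 and the 6 H1 genes 6 different proteins.

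Summed over the genes of a family, the mean level in sh-SAPCD2 was under that of sh-Scb for H1, H2B, H3 and H4 and over it for H2A. The H3 genes had 5.39 and 6.18 CPM in sh-Scb and 3.32 and 2.39 CPM in sh-SAPCD2, 49.3% of the control mean. The H2B genes had 26.2 and 26.1 CPM in sh-Scb and 15.8 and 18.2 CPM in sh-SAPCD2 (65.1%). The H1 genes had 3.005 and 4.94 CPM in sh-Scb and 2.37 and 2.13 CPM in sh-SAPCD2 (56.7%), and the H4 genes 18.6 and 18.3 CPM against 10.3 and 16.6 CPM (72.8%). The groups did not overlap in any of these families. Such separation is common with 2 libraries a group. Of all single tested genes, 33.4% had sh-Scb above without overlap and 33.5% had sh-SAPCD2 above. The H2A sum of 26.9 and 29.0 CPM in sh-Scb and 30.6 and 44.4 CPM in sh-SAPCD2 (134%) was dominated by H2AC25, and without that gene it was 9.90 ± 1.36 CPM in sh-Scb and 5.12 ± 1.30 CPM in sh-SAPCD2 (mean ± SD, n = 2, 51.7%). H2AC25 made up 21.9% of all histone cluster CPM in sh-Scb and 44.3% in sh-SAPCD2. Over all members the sum was 82.3 ± 3.08 CPM in sh-Scb and 73.0 ± 15.1 CPM in sh-SAPCD2 (mean ± SD, n = 2), and without H2AC25 it was 64.3 ± 2.92 and 40.7 ± 4.12 CPM. H2AC25 was the only member called higher, so leaving it out moves these sums toward lower values in sh-SAPCD2 by selection. No gene called lower was left out in the same way. With 2 libraries a group, the smallest two-sided exact permutation p for such a sum is 0.333, which cannot pass a threshold of 0.05, and no other test was run on the sums.

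**Figure D3:**
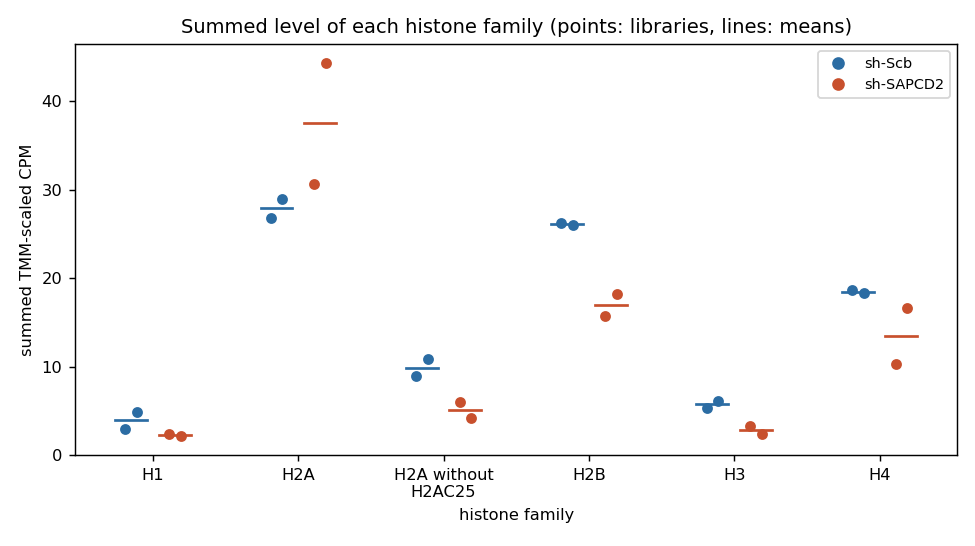
Summed TMM-scaled CPM of each histone family in the 2 sh-Scb (blue) and 2 sh-SAPCD2 (orange) libraries, with lines at the group means. The H2A sum is higher in sh-SAPCD2 and becomes lower once H2AC25, the only member called higher, is left out. The H3 sum is 49.3% of the control mean.

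Along the genome, 55 of the 70 genes lie on chromosome 6, 13 on chromosome 1, 1 on chromosome 12 (H4C16) and 1 on chromosome 21 (H2BC12L). Genes less than 200000 bases apart were put in 1 cluster. Of all tested genes, 12.5% were lower. The cluster at chr1:149782689-149887965 held 3 of the 7 lower genes (H2BC21, H3C14 and H3C15) among 6 tested, with a median log2 fold change of −1.08. These 6 include the copies H3C14 and H3C15 and the copies H4C14 and H4C15, which may share reads and so may not count separately. In the cluster at chr6:26017032-26285638, the one with the most members at 32, 10 genes were tested, 1 was lower (H3C8) and the median was −0.66. The cluster at chr6:27125897-27147562 had 1 lower gene of 3 tested (H2AC11), with a median of −0.55. The cluster at chr6:27807479-27893891 had 2 lower genes of 5 tested (H2BC15 and H3C10), with a median of −0.60. Its tested genes include H4C11 and H4C12, to which the same limit applies. In the first 3 of these clusters, H3C14, H3C15, H3C8 and H2AC11 met the count minimum of the filter in sh-Scb alone. The counts of lower genes and the medians there thus lean toward genes higher in sh-Scb. The pair at chr1:228434777-228463104, H2AC25 and H2BC26, stood apart with a median of 0.50, but a difference between clusters was not tested.

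**Figure D4:**
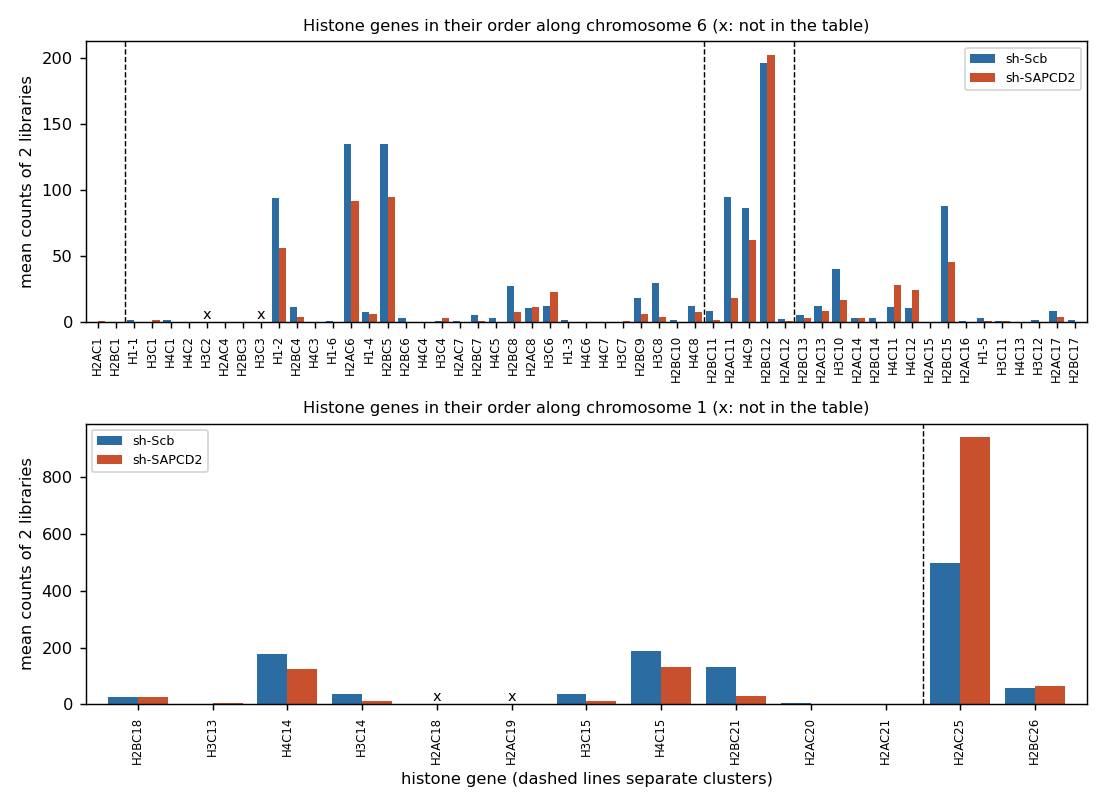
Mean counts of the 2 libraries of each group for the histone genes of chromosome 6 (top) and chromosome 1 (bottom), in their order along the chromosome, with dashed lines between clusters and an x at the 4 genes not in the table. H2AC6 and H2BC5 on chromosome 6 stand above neighbors with few or no counts. H2BC12 on chromosome 6 and H2AC25 on chromosome 1 also stand above theirs. Those include H4C9 beside H2BC12, with 297 counts over the 4 libraries, and H2BC26 beside H2AC25, with 243.

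The genes that lie between the histone genes of chromosome 6 (chr6:25723397-27893891, 2.17 Mb) had a median on the other side of 0. Of 19 protein-coding genes there that are not cluster histones, 12 were tested, with 0 lower and 6 higher by edgeR and a median log2 fold change of 0.59. At an unadjusted p under 0.05, 1 of them was lower and 6 were higher, and DESeq2 called 0 lower and 5 higher. The 18 histone genes tested in the same interval had 4 lower, 0 higher (0 also at an unadjusted p under 0.05 and by DESeq2) and a median of −0.59. Of all tested genes, 12.5% were lower and 12.4% higher by edgeR. Of these lower histone genes, H2AC11 and H3C8 met the count minimum of the filter in sh-Scb alone. DESeq2 called 2 of the 18 lower (12.4% of all tested genes were). The difference between the histone genes and their neighbors was not tested. BTN2A1, a butyrophilin with a role in the recognition of gamma-delta T cells, had 26.8 and 25.9 CPM in sh-Scb and 47.4 and 47.6 CPM in sh-SAPCD2 (log2 fold change 0.85, adjusted p = 0.00648, edgeR). Its relatives BTN3A3 (1.16), BTN3A1 (0.77) and BTN3A2 (0.69), the nucleosome-binding protein gene HMGN4 (0.50) and TRIM38 (1.83) were the other higher genes, with log2 fold changes in parentheses.

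H2A and H2B genes often sit head to head and share the DNA between them. There were 12 such pairs with 193 to 250 bases between the starts. Both genes were tested in 2 pairs, 1 gene in 6 pairs and neither in 4. In the pair of H2AC25 and H2BC26 the log2 fold changes were 0.85 and 0.15, and in the pair of H2BC8 and H2AC8 they were −1.78 and 0.04. H2BC8 was without overlap between groups and H2AC8 overlapped, and the difference within a pair was not tested. H2BC21 shares its 235 bases with H2AC20, which had 2, 5, 1 and 5 counts.

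Promoter sequences, taken as 250 bases before to 50 bases after the start from RefSeq (GRCh38.p14), were matched by symbol for 64 of the 70 genes, at the start nearest to the canonical one where RefSeq lists several. They were searched on both strands for the CCAAT box (CCAAT), the TATA box (TATAAA), the octamer bound by POU2F1 (ATTTGCAT) and E2F sites (TTTCCCGC, TTTGGCGC, TTTCGCGC or TTTGCCGC). H2BC21 had the smallest p-value of the members, H2AC25 was the only one called higher, and the divergent partner of H2BC8, H2AC8, was at 0.04. The promoters of H2BC21, H2AC25 and H2BC8 are printed 5′ to 3′ on the strand of the gene, with every match of these motifs in capitals.
H2BC21, chr1:149886633-149886932, minus strand: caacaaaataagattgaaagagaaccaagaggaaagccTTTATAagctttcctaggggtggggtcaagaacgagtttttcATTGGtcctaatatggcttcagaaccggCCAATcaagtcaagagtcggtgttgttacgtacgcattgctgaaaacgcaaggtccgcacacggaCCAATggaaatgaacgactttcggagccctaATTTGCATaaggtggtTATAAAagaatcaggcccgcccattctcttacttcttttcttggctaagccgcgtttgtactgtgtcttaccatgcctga
H2AC25, chr1:228457824-228458123, minus strand: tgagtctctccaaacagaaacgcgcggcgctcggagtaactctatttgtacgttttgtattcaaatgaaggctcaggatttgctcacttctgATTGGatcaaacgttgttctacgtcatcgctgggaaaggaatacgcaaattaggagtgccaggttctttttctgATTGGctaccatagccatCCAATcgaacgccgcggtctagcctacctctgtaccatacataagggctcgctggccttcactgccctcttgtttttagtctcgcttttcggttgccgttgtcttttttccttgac
H2BC8, chr6:26216639-26216938, minus strand: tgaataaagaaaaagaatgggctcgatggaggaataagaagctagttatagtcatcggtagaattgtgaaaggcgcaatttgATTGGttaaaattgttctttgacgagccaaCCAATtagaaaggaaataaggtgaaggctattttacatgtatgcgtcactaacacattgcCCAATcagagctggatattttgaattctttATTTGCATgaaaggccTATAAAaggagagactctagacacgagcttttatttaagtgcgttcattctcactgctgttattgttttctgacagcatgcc
H2BC21 carried 3 CCAAT boxes, 2 TATA boxes and 1 octamer, H2BC8 carried 3, 1 and 1, and H2AC25 carried 3 CCAAT boxes and none of the other motifs. Over the 64 promoters, 84.4% held CCAAT (36.4% of 15843 protein-coding promoters), 65.6% TATAAA (9.43%), 39.1% the octamer (1.69%) and 16 of 64 an E2F site (4.51%). The octamer was found in 14 of 18 H2B, 11 of 16 H2A, 0 of 11 H3, 0 of 6 H1 and 0 of 13 H4 promoters. The windows of a divergent H2A and H2B pair overlap, so 1 match of any motif can be counted for both genes. The E2F matches of H4C2, H4C9 and H4C13 lay within the coding sequence. CCAAT was in every H1, H2A, H2B and H3 promoter searched and in 3 of 13 H4 promoters. Of the 7 genes called lower, 7 held CCAAT, 5 TATAAA, 2 the octamer and 1 an E2F site. These are matches of letters and no measure of binding.

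The annotation separates the members by how far their transcripts reach. Of the 66 genes in the table, 18 had more than 1 annotated transcript or a canonical transcript over 1000 bases. These held 6311 counts, and 13 were tested, with 3 lower, 1 higher and a median log2 fold change of −0.57. The other 48 genes held 2434 counts, and 14 were tested, with 4 lower, 0 higher (0 also by DESeq2 and at an unadjusted p under 0.05) and a median of −0.70. These 4 lower genes (H2AC11, H3C8, H3C14 and H3C15) met the count minimum of the filter in sh-Scb alone. This count and median thus lean toward genes higher in sh-Scb. Of all tested genes, 12.5% were lower and 12.4% higher. Among other tested protein-coding genes with at most 1000 bases of exon, 132 in number, the median was 0.43, with 7.58% lower and 13.6% higher. Exons of another gene overlapped those of 4 tested members, H2BC18, H2BC26, H2AC6 and H4C8, and 0 of these were called by edgeR, by DESeq2 or at an unadjusted p under 0.05. Without the strand setting of the counting, which is not given in the sources used here, their reads cannot be told apart from those of the overlapping gene.

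The genes that make, process and use histones were taken as lists. Over all tested genes, 12.5% were lower and 12.4% higher by edgeR, the shares to set beside the counts of each list below. Of 26 genes for histone transcription and 3′ end processing, 8 were lower and 1 was higher, with a median log2 fold change of −0.28. CDK2, the kinase that with cyclin E activates NPAT, had 72.0 and 70.8 CPM in sh-Scb and 25.8 and 25.8 CPM in sh-SAPCD2 (log2 fold change −1.47, adjusted p = 0.00210, edgeR). CASP8AP2 (FLASH), which with LSM11 of the U7 snRNP recruits the cleavage complex, had 63.3 and 61.9 CPM in sh-Scb and 36.7 and 26.1 CPM in sh-SAPCD2 (log2 fold change −0.998, adjusted p = 0.0129, edgeR). LSM11 itself went the other way, from 17.3 and 18.7 CPM in sh-Scb to 46.9 and 47.8 CPM in sh-SAPCD2 (1.40, adjusted p = 0.00287, edgeR). ZNF473, another protein of the processing machinery, was lower (−0.71, adjusted p = 0.0352, edgeR). NPAT (−0.27, adjusted p = 0.299), SLBP (−0.14, adjusted p = 0.346), HINFP (0.09, adjusted p = 0.624), the H4 gene activator, and LSM10 (0.48, adjusted p = 0.142) were not called by edgeR. SLBP had 87.5 and 84.1 CPM in sh-Scb and 79.6 and 75.6 CPM in sh-SAPCD2, a small gap without overlap.

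Of 16 genes for the decay of histone mRNA, 3 were lower (LSM3, LSM5 and EXOSC10) and 0 higher by edgeR, with a median of 0.01. Here and for the replication-independent and S-phase lists below, 0 genes were higher by DESeq2 or at an unadjusted p under 0.05. UPF1, the helicase recruited to the stem-loop complex, was at 0.20 and ERI1, the exonuclease that trims the stem, at 0.04, and neither was called. Of 24 histone chaperone genes, 12 were lower and 1 was higher, with a median of −0.42. ASF1B, a carrier of new H3-H4, had 60.4 and 54.8 CPM in sh-Scb and 15.96 and 20.7 CPM in sh-SAPCD2 (log2 fold change −1.65, adjusted p = 0.00322, edgeR). Its paralog ASF1A had 32.98 and 32.7 CPM against 43.5 and 39.0 CPM and was not called (0.33, adjusted p = 0.105, edgeR). NASP, which keeps a store of soluble H3-H4, was at −0.96, and the CAF-1 subunits CHAF1B and CHAF1A, which deposit it behind the replication fork, were at −0.98 and −0.62, all called lower. SPTY2D1, an H3-H4 chaperone of transcribed genes, was the higher one (0.90, adjusted p = 0.00773, edgeR).

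Of the replication-independent histones, whose mRNAs are mostly polyadenylated, 12 were tested, with 4 lower, 0 higher and a median of −0.28. In this list, H2AJ lies close to H4C16 and the untested H3-4 close to H2AC25. By the search above, H2AX, H3-7 and H3-4 of this list carry the stem-loop, so it is not free of genes with that element. H2AX, the variant phosphorylated at DNA breaks, whose gene also carries the stem-loop, had 233.3 and 224.9 CPM in sh-Scb and 96.2 and 131.8 CPM in sh-SAPCD2 (log2 fold change −1.01, adjusted p = 0.00943, edgeR). H2AZ2 (−0.77), H2AZ1 (−0.51) and MACROH2A1 (−0.39) were the other lower genes. The H3.3 genes H3-3A (−0.05) and H3-3B (0.11), the linker histone H1-10 (−0.23), H2AJ (0.39) and the centromeric CENPA (−0.34) were not called. Of 23 genes induced in S phase, 21 were lower and 0 higher, with a median of −1.06. PCNA, the sliding clamp of the replication fork, had 271.2 and 270.8 CPM in sh-Scb and 123.4 and 121.8 CPM in sh-SAPCD2 (log2 fold change −1.14, adjusted p = 0.00243, edgeR).

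**Figure D5:**
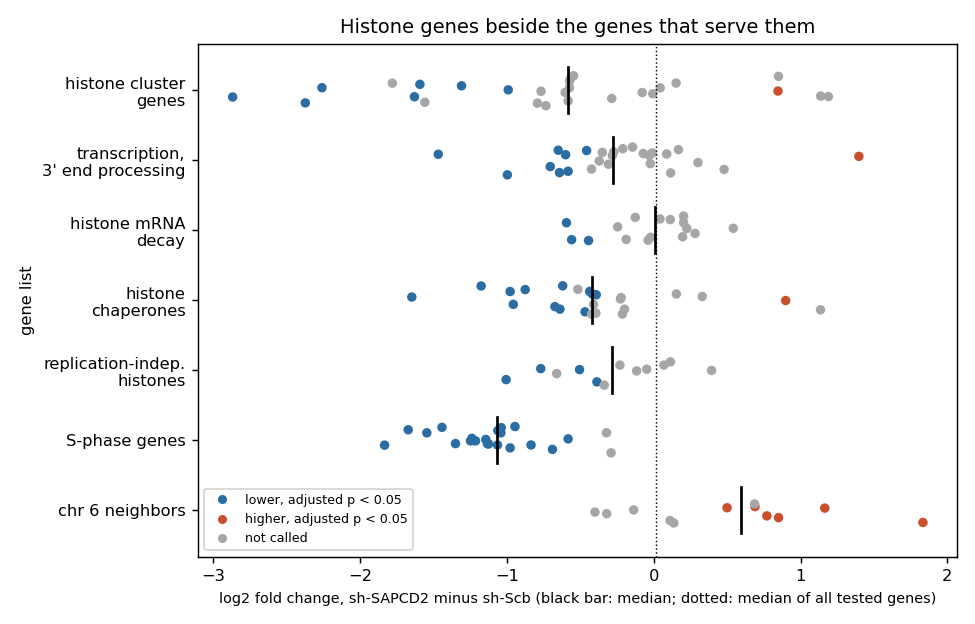
Log2 fold change, sh-SAPCD2 minus sh-Scb, of each tested gene in the histone clusters, in the lists of genes that make, process and use histones, in the S-phase list and between the histone genes of chromosome 6 (black bars are medians, and the dotted line is the median of all tested genes at 0.02). The S-phase genes lie lowest (median −1.06), the histone cluster genes run from −2.87 to 1.19 around a median of −0.58, and the chromosome 6 neighbors lie at 0.59.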

How the data were processed

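RNA was sequenced from 2 libraries of sh-Scb and 2 libraries of sh-SAPCD2 cells. Reads were paired-end. The authors used HISAT2 2.2.0 for alignment to hg38 and StringTie for abundance, and deposited raw counts per Ensembl gene. The step to counts, the annotation release, the strandedness and the assignment of reads with several matches are not given in the sources used here. Libraries held 25347900 to 31850997 counts. The floor of 3 counts covers counting error only.

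Counts were scaled by TMM, filtered by filterByExpr (minimum count 10, minimum total 15) and tested in R 4.3.3 by edgeR 4.0.16 (quasi-likelihood), with Benjamini-Hochberg adjustment over 18779 genes. Biological variation was estimated at 15.4% (coefficient of variation). A call is an adjusted p under 0.05. Positions, exons and coding sequences came from GENCODE 44, which matched 17467 of the tested genes, and sequences from hg38 and RefSeq, read with pysam 0.24.0. Alternatives were scaling by library totals or by the size factors of DESeq2 1.42.0, the test of DESeq2, and a replicate block. Others were a loess correction in R (span 0.3) for GC content and length, alone and with the block, and protein-coding genes only. The filter was also dropped or replaced by a mean of at least 1 CPM, a fold threshold added, and each library left out. Summing near-identical copies was added after seeing the data.

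The members and lists were chosen with earlier results of these data known. Every member that passed the filter could be named. Values in every library are given for the 3 genes of a family with the highest level per kilobase and for called members, and beyond that rule for H3C6, H2AC20 and counts of other untested genes, which were chosen after their values were seen. List genes named are fixed factors and those with the smallest p, at most 6 to a list. A further list gene is not reported here.

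On simulated data for this comparison, edgeR recovered 49 of 100 genes changed by a log2 fold of 1 and 84 of 100 changed by 2. It called 24 unchanged genes, of 18779 genes. The changed genes were drawn from all tested genes, with a median of 14.2 CPM, against 0.899 CPM for the tested members. Recovery at the level of the members was not measured.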

Additional observations from a re-analysis of the deposited data

How the results depend on the processing

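H2BC21 was called lower under every alternative, and H2AC11 under all but the one without a filter. Over the tested members, 360 log2 fold changes were recomputed, of which 317 stayed on the same side of the threshold, 27 lost a call, 16 gained one, and 0 of the called values changed sign. As reported, there were 7 members lower and 1 higher. Lower members numbered 3 of 27 by DESeq2 (11.1%, against 12.4% of all genes), 4 of 13 at a mean of at least 1 CPM (30.8%, against 15.2%), 1 of 56 (H2BC21) without a filter (1.79%, against 3.38%), and 11 of 27 with the GC and length correction plus the replicate block (40.7%, against 20.4%). Higher members numbered 0 without a filter and 0 with a log2 fold change over 1. Without a filter the median of the members was −0.78. Leaving out 1 library gave medians of −0.92 to −0.37, and the calls changed between fits. In these fits the lone library of a group is taken to vary like the other group. The cause of these changes was not tested.

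The replicate numbers did not pair the libraries (correlation of same-numbered deviations −0.0188). With the replicate block, 8 members were lower (29.6%, against 14.4% of all genes), with H2BC8 added, and 1 was higher (3.7%, against 15.2%). In that fit, 1 decay gene and 2 chaperone genes were higher. Near-identical copies summed, an alternative chosen after seeing the data, gave 6 lower of 24 tested (25%, against 12.5% of all genes).

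Over all genes, 2339 were lower and 2326 higher. Lower genes numbered 3566 with the GC and length correction plus the block, 1180 without a filter, 968 with a log2 fold change over 1, and 1146 to 4014 with 1 library left out. Higher genes numbered 3821 with the GC and length correction, 3936 with the block added, 1081 without a filter, 880 with the fold threshold, and 1176 to 4396 with 1 library left out. In the lists, counts without a filter were 1 lower for transcription and 3′ end processing, 0 for decay, 6 for chaperones and 2 for replication-independent histones. With the GC and length correction, higher genes were 2 in transcription, 2 in decay and 2 in chaperones, and with the block added 2, 2 and 3. With 1 library left out, transcription gave 2 to 13 lower and 1 to 6 higher, decay 0 to 6 and 0 to 5, chaperones 5 to 20 and 1 to 3, and replication-independent histones 2 to 8 and 0 to 2.

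For the family sums, leaving out 1 library moved the log2 ratio to between −1.13 and −0.42 for H1, 0.13 and 0.67 for H2A, −0.73 and −0.52 for H2B, −1.28 and −0.80 for H3, −0.85 and −0.15 for H4, and −0.40 and 0.0253 for all members. The last value, without the first sh-SAPCD2 library, turned the direction of the sum over all members. At this depth, the 18 members under 3 counts in every library could not be told from 0.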
